A study of Homo sapiens with 6 samples.

Results

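The TAM receptors and their ligands are 5 genes: the receptor tyrosine kinases AXL, TYRO3 and MERTK and the secreted proteins GAS6 and PROS1 (protein S). Accessible regions were taken as theirs where the deposited tables gave 1 of these 5 names, at any distance, with each region counted once. That gave 97 of 226920 regions, namely 35 for AXL, 13 for TYRO3, 14 for MERTK, 27 for GAS6 and 8 for PROS1, and 0 of the 97 carried a further gene name.

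As background, GAS6 and protein S carry vitamin K-dependent Gla domains that bind phosphatidylserine exposed on membranes, and their other end engages the receptors, so that they bridge dying cells to TAM-bearing cells. The receptors signal through PI3K-AKT and MAPK and mediate engulfment of apoptotic cells and damping of innate immune responses. GAS6 binds all of the receptors, whereas protein S acts on TYRO3 and MERTK. In melanoma, high AXL marks a dedifferentiated, invasive state that is low in the lineage factor MITF and tolerant of MAPK pathway inhibitors.

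The study used ATAC-seq, which reads accessible chromatin from the sites where Tn5 transposase can insert sequencing adapters. The cells were A375, a human melanoma line in long use. They were given recombinant HMGA1, a chromatin protein that binds the minor groove of AT-rich DNA through its AT hooks, for 2 h or 18 h, or were left untreated (mock), with 2 libraries per group. No dose of the protein was given, all 3 groups came from 1 cell line, and whether replicate libraries came from separate cultures was not stated, so p-values measure only the spread between these libraries. No vehicle or control protein was named for mock, so effects of the protein and of its addition cannot be told apart.

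The deposited values were log2 fold changes, their standard errors (SE) and adjusted p-values from DESeq2, with 1 mean signal per region over all 6 libraries. Values of single libraries were not analysed here, and the depth of each library is unknown. A region counted as tested where its mean signal reached a limit, which was 56.2 for 2 h against mock, 101 for the later time against mock and 41.7 between both times; regions under it have a deposited adjusted p of 1. It was called where the adjusted p was under 0.05 over all tested regions. As a check of the label, the mean signal at the starts of melanocyte lineage genes in the authors' deposited table was 694 for MITF, 298 for PMEL and 63.8 for SOX10. These 3 of 6 lineage genes had a region at the start, and for the others (MLANA, TYR and DCT) the nearest region lay up to 8672 bases away. Of 8 genes of keratinocytes, immune, endothelial and fibroblast cells 1 had a region at the start, PDGFRB with a mean signal of 448 in the authors' deposited table. For the rest of these genes, signed distances to the nearest region ran from -17478 bases (PTPRC) to 3804 bases (PECAM1), with KRT5 at -439. The mean signal of the nearest region ran from 37.3 to 694 over the lineage genes. It ran from 20.2 to 448 over the genes of other cell types, so the ranges overlapped. They were not matched for distance to the start.

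The promoter windows that overlap a measured region are shown because they allow the start regions below to be read beside their base composition, to which AT hooks are sensitive. They are RefSeq sequences of GRCh38.p14, 5′ to 3′ on the gene's strand, from 250 bases before to 50 bases after a gene start. Capitals mark runs of at least 4 A or T bases.
AXL, chr19:41218973-41219272, + strand: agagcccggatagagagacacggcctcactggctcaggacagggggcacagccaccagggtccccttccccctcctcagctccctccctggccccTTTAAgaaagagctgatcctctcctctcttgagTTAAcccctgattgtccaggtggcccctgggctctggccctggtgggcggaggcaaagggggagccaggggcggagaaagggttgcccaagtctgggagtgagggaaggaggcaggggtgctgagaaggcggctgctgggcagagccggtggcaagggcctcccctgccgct
MERTK, chr2:111898357-111898656, + strand: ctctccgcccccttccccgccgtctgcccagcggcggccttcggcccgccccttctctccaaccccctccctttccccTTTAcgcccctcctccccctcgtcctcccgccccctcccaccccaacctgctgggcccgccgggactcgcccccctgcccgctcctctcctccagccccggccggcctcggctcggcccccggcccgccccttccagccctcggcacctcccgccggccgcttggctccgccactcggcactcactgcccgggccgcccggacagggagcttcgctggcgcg
GAS6, chr13:113864027-113864326, - strand: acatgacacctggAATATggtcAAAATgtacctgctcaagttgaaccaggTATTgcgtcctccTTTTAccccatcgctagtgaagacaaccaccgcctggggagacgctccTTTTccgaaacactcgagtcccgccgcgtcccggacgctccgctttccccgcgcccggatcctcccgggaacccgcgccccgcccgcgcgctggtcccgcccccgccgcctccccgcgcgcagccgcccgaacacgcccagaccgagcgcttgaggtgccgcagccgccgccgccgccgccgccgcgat
PROS1, chr3:93973847-93974146, - strand: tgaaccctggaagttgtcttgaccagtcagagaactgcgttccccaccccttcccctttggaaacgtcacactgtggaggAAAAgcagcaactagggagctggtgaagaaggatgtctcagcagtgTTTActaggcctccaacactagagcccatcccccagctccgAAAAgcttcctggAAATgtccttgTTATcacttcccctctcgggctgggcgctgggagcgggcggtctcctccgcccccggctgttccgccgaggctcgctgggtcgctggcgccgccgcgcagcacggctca
The AXL window held 34.0% A and T bases and 2 such runs, the MERTK window 21.7% and 1 run, the GAS6 window 31.0% and 5 runs, and the PROS1 window 39.0% and 5 runs. Over 35116 RefSeq promoter windows of this length, the medians were 41.3% and 5 runs. The AXL and MERTK windows lay wholly inside their start regions, 297 of the 300 bases of the PROS1 window did, and 113 of the GAS6 window.

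A second AXL window, at the downstream start from which the deposited table measures its AXL distances, was touched by no region and is shown because it alone of the 7 windows of these genes held motif matches. Here capitals mark the matches.
AXL downstream start, chr19:41226505-41226804, + strand: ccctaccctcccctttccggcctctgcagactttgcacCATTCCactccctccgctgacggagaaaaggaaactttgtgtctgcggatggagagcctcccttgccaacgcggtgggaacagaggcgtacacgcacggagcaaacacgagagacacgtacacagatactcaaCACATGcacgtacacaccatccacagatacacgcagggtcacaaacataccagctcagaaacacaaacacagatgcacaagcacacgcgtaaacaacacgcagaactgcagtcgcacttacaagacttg
Both strands were searched for TGACTCA (AP-1), GGAATG (TEAD), CATGTG and CACGTG (E-boxes bound by MITF), and the AT tracts AATATT and AAATTT. The downstream AXL window held 1 GGAATG match, on the opposite strand, and 1 CATGTG match, also on the opposite strand. These motifs occur in 14.0% and 11.1% of all promoter windows. TGACTCA was in 4.95%, CACGTG in 7.26%, AATATT in 6.96% and AAATTT in 7.52% of them. The 6 other windows of these genes, both TYRO3 windows included, held none of the 6 motifs. A match is a run of letters, not a bound site.

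At 2 h, 2 of the 31 tested regions rose against mock and 0 fell: 1 of AXL and 1 of GAS6 (DESeq2, adjusted p under 0.05). Over all tested regions 1.28% were called: 0.856% rose and 0.421% fell. In the authors' deposited table, 7 of the 31 had an unadjusted p under 0.05 (DESeq2). Over all tested regions that share was 10.0% at 2 h, 7.89% at 18 h against mock and 11.6% between the times. At 18 h, 0 of 21 tested regions differed from mock in either direction, with 1 of 21 at an unadjusted p under 0.05 (DESeq2), where 0.121% of all tested regions were called (0.00542% rose and 0.116% fell). Between the times (18 h against 2 h), 7 of 45 tested regions fell and 0 rose: 5 of AXL, 1 of GAS6 and 1 of MERTK, against 3.48% called over all tested regions (2.98% fell and 0.498% rose). By gene name, 3.53% of 17572 tested names held a region that rose at 2 h and 12.1% of 17991 held one that fell from 2 h to 18 h. The 2 h libraries enter both of these comparisons, so a rise at 2 h and a fall afterwards are not independent observations.

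**Figure D1:**
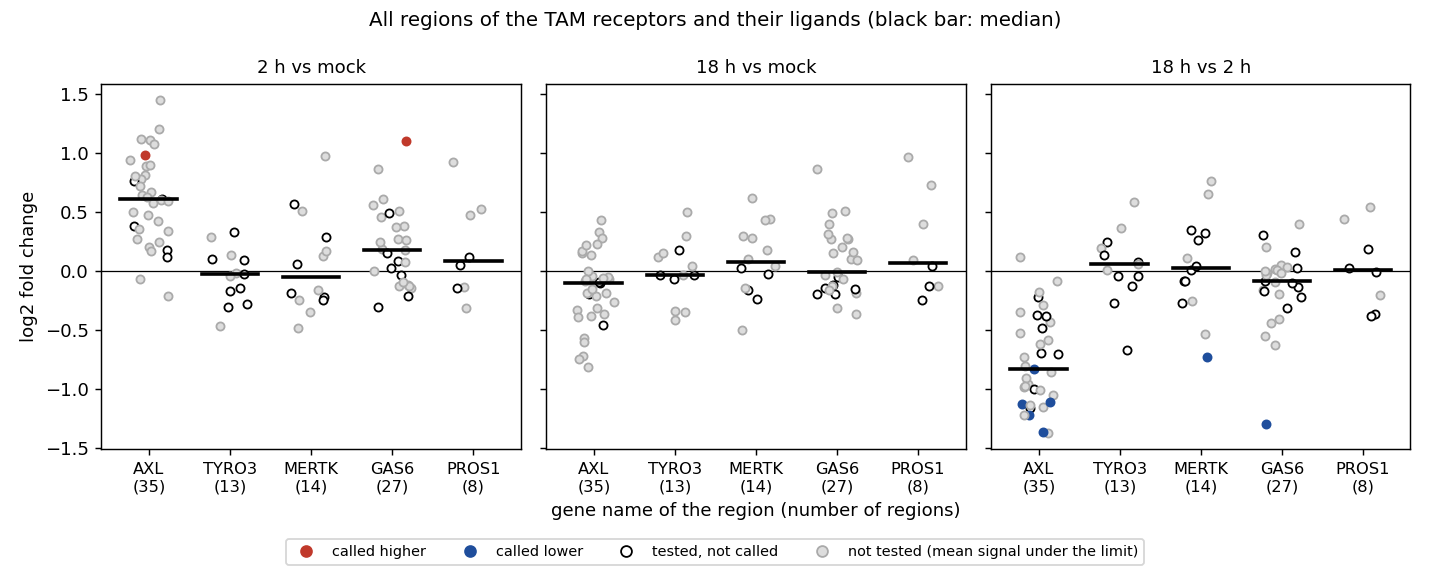
Log2 fold change (y axis) of each of the 97 regions by gene name (x axis, number of regions in brackets) in the 3 comparisons; a point is a region and the black bar is the median of the gene's regions. The AXL median stands at 0.61 for 2 h against mock and at -0.84 for 18 h against 2 h, while the medians of the other genes lie between -0.09 and 0.18 in these panels.

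AXL binds GAS6 and is the TAM receptor most often tied to invasion and drug tolerance in melanoma. Nearly all of its regions lay on one side of 0 in each comparison with the 2 h libraries. At 2 h, 33 of 35 AXL regions had a log2 fold change above 0, with a median of 0.61 and a range of -0.21 to 1.45 in the authors' deposited table. At 18 h against 2 h, 34 of 35 were below 0, with a median of -0.84 and a range of -1.38 to 0.12 in the authors' deposited table. At 18 h against mock, 27 were below and 8 above 0, with a median of -0.10. The median over all regions of the series was 0.0015 at 2 h, -0.0016 at 18 h and 0.0097 from 2 h to 18 h.

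Most AXL regions were weak: their mean signal ran from 17.3 to 665 with a median of 29.1, against 39.3 over all regions, and 6, 4 and 13 of the 35 were tested in the 3 comparisons (2 h against mock, 18 h against mock, 18 h against 2 h). Weak regions of the series lay slightly above 0 in general. Of the 74278 regions with a mean signal between the quartiles of the AXL regions (24.5 to 52.0), 56.2% were above 0 at 2 h, with a median of 0.05, and their median at 18 h against 2 h was 0.0051. At an unadjusted p under 0.05, 10 of the 35 AXL regions were higher and 0 lower at 2 h, against 2.75% and 2.43% of all regions. Between the times, 20 of 35 were lower and 0 higher, against 4.86% and 2.01% of all regions. The 35 regions share the same 6 libraries and 1 locus and are not replicates.

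**Figure D2:**
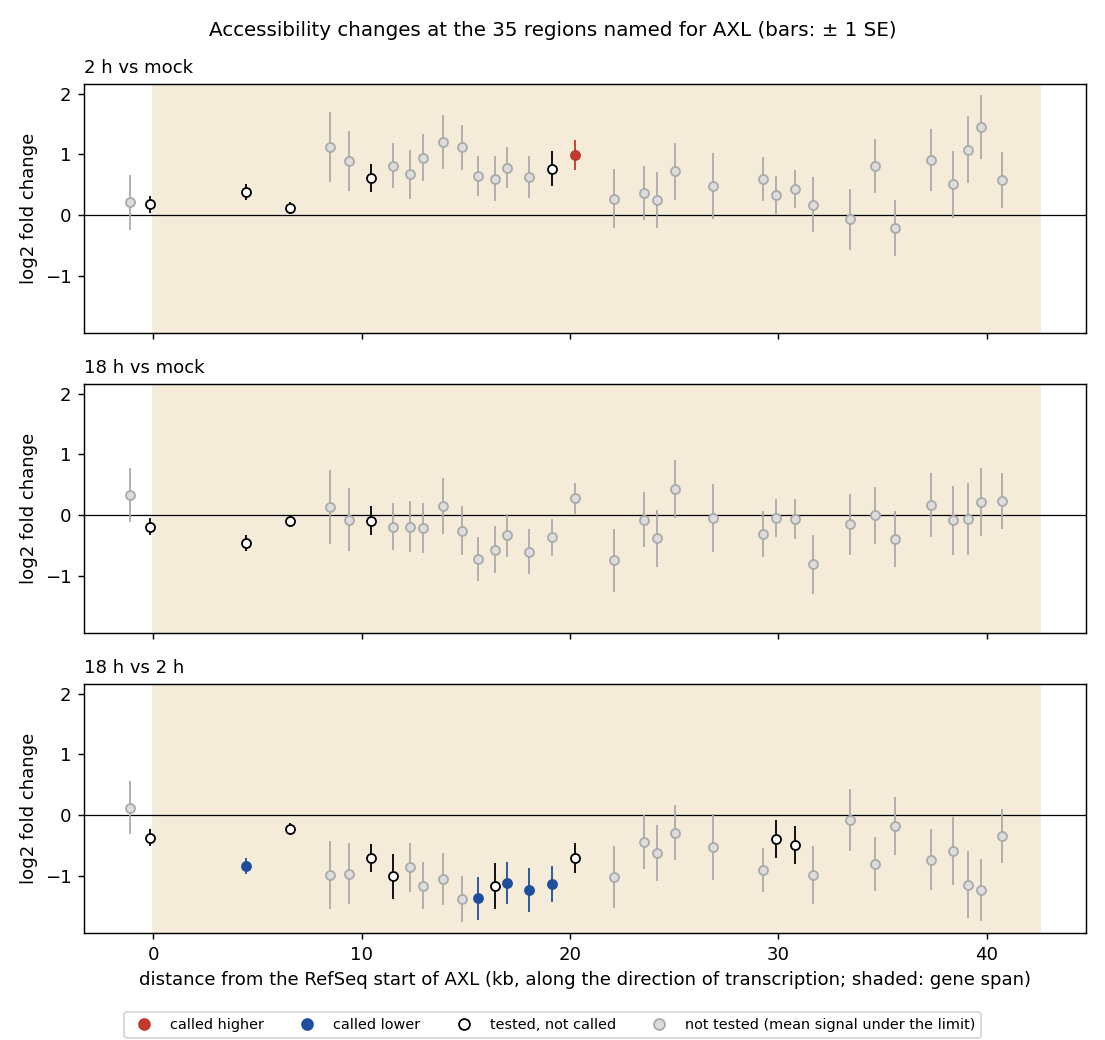
Log2 fold change ± 1 SE (y axis) of the 35 AXL regions against distance from the RefSeq start (x axis, kb), with the gene span shaded; colours mark the call and grey marks regions under the signal limit. Points lie above 0 along the gene at 2 h (33 of 35), near or below 0 at 18 h against mock (27 of 35 below), and below 0 from 2 h to 18 h (34 of 35).

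The AXL region called at 2 h (chr19:41239207-41239708, mean signal 95.9) lay 20.2 kb past the RefSeq start, inside the gene span. It rose by 0.98 ± 0.25 (SE; adjusted p = 0.0114, DESeq2), or 1.98-fold, in the authors' deposited table. Its level at 18 h was 0.28 ± 0.26 above mock on the log2 scale (unadjusted p = 0.277, DESeq2). Its mean signal was under the limit of that comparison, so it did not count as tested there. Between the times it had -0.71 ± 0.24 (adjusted p = 0.079, DESeq2) in the authors' deposited table, which missed the threshold.

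The regions called from 2 h to 18 h were others. The strongest signal among them was at 4.45 kb from the start (chr19:41223424-41223925, mean signal 435). This region fell by 0.84 ± 0.13 (adjusted p = 8.68e-08, DESeq2), or 1.78-fold, in the authors' deposited table. Against mock it stood at 0.38 ± 0.13 at 2 h (adjusted p = 0.116) and at -0.46 ± 0.13 at 18 h (adjusted p = 0.128, DESeq2) in the authors' deposited table, so that the fall between the times was made up of differences on both sides of mock, neither of which was called. The other 4 lay in 1 stretch from 15.6 to 19.2 kb and had weaker mean signals of 43.9 to 76.7. They had -1.37 ± 0.35 (15.6 kb), -1.12 ± 0.34 (17.0 kb), -1.23 ± 0.36 (18.0 kb) and -1.13 ± 0.30 (19.2 kb) in the authors' deposited table, with adjusted p (DESeq2) of 0.00595, 0.0364, 0.0255 and 0.00764. Without the limit on mean signal the calls at 17.0 and 18.0 kb were lost (adjusted p = 0.073 and 0.0516), and a region at 14.8 kb was called (adjusted p = 0.0276).

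Among the tested AXL regions, the one just outside the threshold from 2 h to 18 h lay at 16.4 kb, with -1.17 ± 0.38 (adjusted p = 0.0598, DESeq2) in the authors' deposited table. At 2 h it was the 4.45 kb region given above.

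By value, log2 fold changes were larger in size between 10 and 20 kb than near the RefSeq start. In the authors' deposited table the median log2 fold change at 2 h was 0.29 over the 6 regions up to 10 kb from the start, 0.76 over the 11 regions from 10 to 20 kb, 0.42 over the 8 from 20 to 30 kb and 0.54 over the 10 beyond. For 18 h against 2 h these medians were -0.60, -1.13, -0.58 and -0.66. The strongest AXL region of all (mean signal 665, 6.58 kb) had 0.12 ± 0.10 at 2 h and -0.22 ± 0.10 from 2 h to 18 h in the authors' deposited table, and was not called. The stretches were not tested against each other, and they also differed in median mean signal (188, 43.9, 27.7 and 24.5). Within the first stretch, the weak regions at 8.47 and 9.41 kb (mean signal 17.3 and 21.5) had 1.12 ± 0.58 and 0.89 ± 0.50 at 2 h. Between the times they had -0.99 ± 0.57 and -0.96 ± 0.50. This stretch also includes the region 1.12 kb before the start, with 0.12 ± 0.44 between the times. Place along the gene and signal thus cannot be told apart here. These places are counted from the RefSeq start. From the downstream AXL start, which the deposited distances use, the stretch of 10 to 20 kb ran from 2.655 to 11.375 kb. The strongest region (6.58 kb) and the weak region at 8.47 kb lay 0.698 and 0.691 kb from that downstream start.

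On both sides of the gene the medians were nearer to 0. Of the regions wholly within 50 kb upstream of the AXL span, 6 of 10 were above 0 at 2 h, with a median of 0.11, and of those within 50 kb downstream 9 of 14, with a median of 0.09. Inside the span it was 31 of 33, with a median of 0.62. For 18 h against 2 h the medians were -0.08 upstream, -0.21 downstream and -0.86 inside, where 33 of 33 were below 0. Of the tested flanking regions, 3 upstream and 3 downstream at 2 h and 6 upstream and 4 downstream between the times, 0 were called, with 0 at 2 h and 1 between the times at an unadjusted p under 0.05 (DESeq2). The difference between span and flanks was not tested.

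AXL was also densely covered. It had 7.99 named regions per 10 kb of its span, against 3.28 for TYRO3, 0.993 for MERTK, 3.91 for GAS6 and 0.397 for PROS1. How the authors called regions, and whether per library or on pooled reads, was not given in the sources used here, so the part that the 2 h libraries had in placing these regions was not tested.

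Among 1704 gene names with at least 30 regions, the AXL median at 2 h was the 6th highest, and from 2 h to 18 h it was the 3rd lowest of 1702. The 5th and 95th percentiles of the names were -0.13 and 0.21 at 2 h and -0.21 and 0.13 between the times. At 18 h against mock AXL ranked 244th from the lowest of 1701.

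TYRO3, a receptor for both ligands, had no called region. At 2 h 5 of its 13 regions were above 0, with a median of -0.03, and from 2 h to 18 h 8 were (median 0.06), in the authors' deposited table. Of 8, 4 and 8 tested regions in the 3 comparisons (2 h against mock, 18 h against mock, 18 h against 2 h), 1, 0 and 1 had an unadjusted p under 0.05 (DESeq2). The region with the smallest p at 2 h was the one at the start that the table uses, 1.31 kb before the RefSeq start (mean signal 323). It had -0.28 ± 0.13 (adjusted p = 0.451, DESeq2) in the authors' deposited table. Between the times the smallest p was at 19.9 kb, with -0.67 ± 0.26 (adjusted p = 0.176, DESeq2) in the authors' deposited table, and at 18 h against mock it was at 9.46 kb, with 0.18 ± 0.16 (adjusted p = 0.913, DESeq2).

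MERTK, the receptor through which macrophages and retinal pigment epithelium engulf dying cells and shed outer segments, had 1 called region among 14. This region lay inside the gene, 64.8 kb from the start (chr2:111963114-111963615, mean signal 143), and fell from 2 h to 18 h by 0.73 ± 0.20 (adjusted p = 0.0142, DESeq2), or 1.66-fold, in the authors' deposited table. It stood at 0.57 ± 0.20 at 2 h (adjusted p = 0.167, DESeq2) and at -0.17 ± 0.21 at 18 h (adjusted p = 0.956, DESeq2) against mock in the authors' deposited table. MERTK regions as a whole were split in direction: 7 of 14 were above 0 at 2 h and 8 of 14 from 2 h to 18 h, with medians of -0.06 and 0.02. At 18 h against mock the smallest p among the 4 tested regions was at 7.78 kb, with -0.24 ± 0.22 (adjusted p = 0.914, DESeq2) in the authors' deposited table.

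GAS6, the ligand of AXL, TYRO3 and MERTK, had 1 called region among 27, of which 8, 6 and 10 were tested in the 3 comparisons. It lay 33.3 kb upstream of the RefSeq start, outside the gene and inside the span of the long non-coding RNA gene LINC00452 (chr13:113897127-113897628, mean signal 178). It rose at 2 h by 1.10 ± 0.18 (adjusted p = 1.84e-06, DESeq2) in the authors' deposited table, 26th by p among the 737 regions that rose. Between 2 h and 18 h it fell by 1.30 ± 0.18 (adjusted p = 1.20e-09, DESeq2), or 2.46-fold, in the authors' deposited table, 60th by p of 3220. At 18 h it stood at -0.19 ± 0.19 against mock (adjusted p = 0.926, DESeq2) in the authors' deposited table. The tables call it GAS6 by distance to a start; they do not link it to GAS6 by any other measure.

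Within LINC00452, the 4 other regions named for GAS6 had mean signals of 17.9 to 77.3, and the strongest of them, 49.6 kb upstream, had 0.15 ± 0.27 at 2 h in the authors' deposited table. The strongest GAS6 region (mean signal 1114, 26.2 kb into the gene) had 0.02 ± 0.08 at 2 h (adjusted p = 0.973, DESeq2) in the authors' deposited table, with a 95% interval of -0.13 to 0.18, and -0.17 ± 0.08 between the times (adjusted p = 0.341, unadjusted p = 0.0326, DESeq2). At 18 h against mock it had the smallest p of the 6 tested GAS6 regions, at -0.15 ± 0.08 (adjusted p = 0.688, DESeq2) in the authors' deposited table. Of 27 GAS6 regions, 19 were above 0 at 2 h, with a median of 0.18, and 10 were above 0 between the times (median -0.09). Among 9545 gene names with at least 8 regions, 833 had a median at 2 h at or above that of GAS6.

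**Figure D3:**
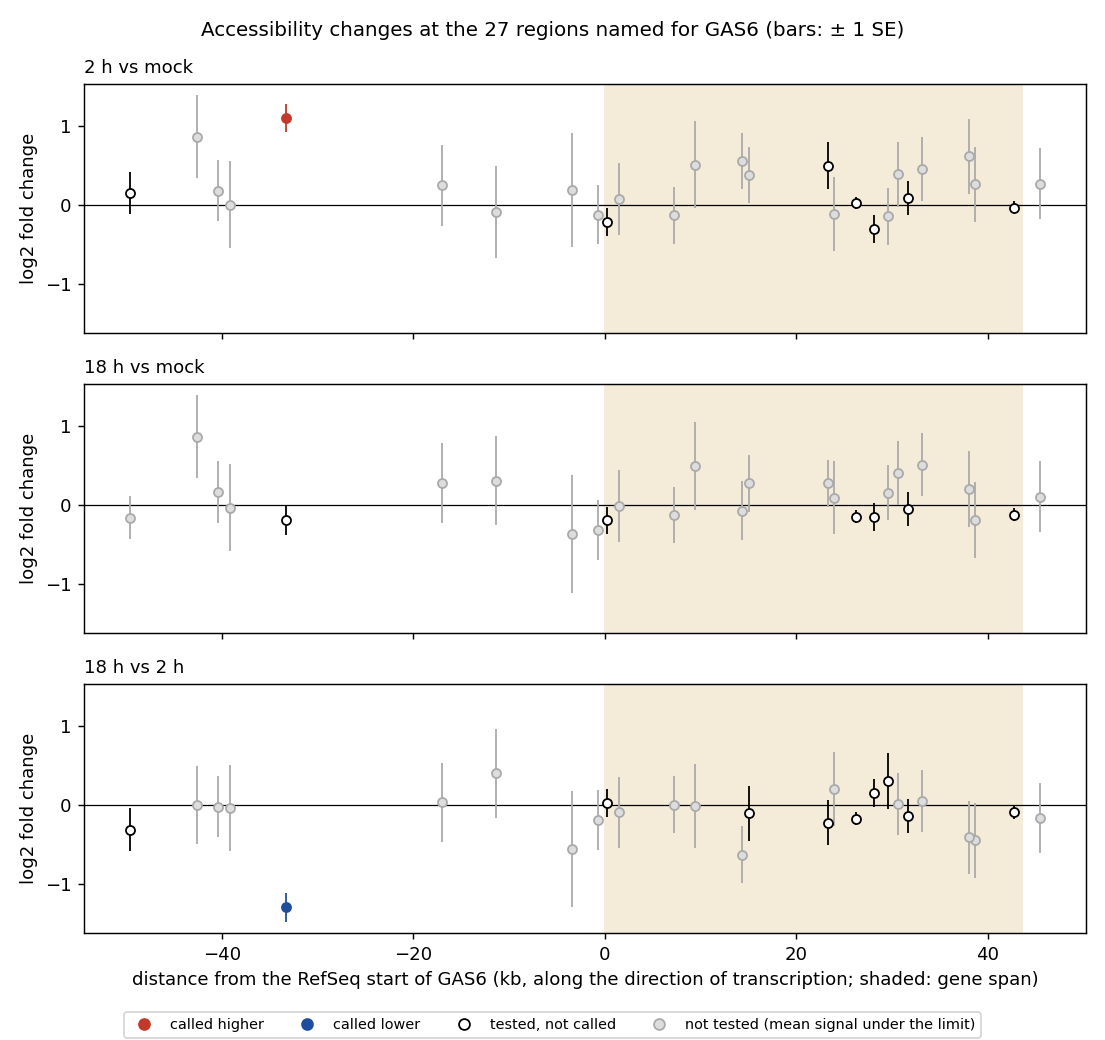
Log2 fold change ± 1 SE (y axis) of the 27 GAS6 regions against distance from the RefSeq start (x axis, kb; negative is upstream), with the gene span shaded. The region 33.3 kb upstream stands at 1.10 at 2 h and at -1.30 from 2 h to 18 h, and the other tested regions lie between -0.31 and 0.50 at 2 h.

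PROS1 encodes protein S, an anticoagulant cofactor as well as a TAM ligand, and had no called region. Of its 8 regions 3, 3 and 5 were tested in the 3 comparisons, and 0, 0 and 1 had an unadjusted p under 0.05 (DESeq2). That 1 was the strongest PROS1 region (mean signal 418), 130 kb from the start and beyond the far end of the gene, with -0.37 ± 0.13 from 2 h to 18 h (adjusted p = 0.104, DESeq2) in the authors' deposited table. It had 0.12 ± 0.13 at 2 h and -0.25 ± 0.13 at 18 h against mock in the authors' deposited table (adjusted p = 0.861 and 0.668, DESeq2). The smallest p at 2 h was at the PROS1 start, with -0.15 ± 0.14 (adjusted p = 0.828, DESeq2) in the authors' deposited table. Only 4 of the 8 regions lay on the gene, and 1 was named for PROS1 at a distance of 2421 kb.

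Levels in each group were derived from the deposited mean signal and fold changes, taking the mean signal as the average of the 3 group levels. They are approximate and carry no error of their own. For the GAS6 upstream region the implied level was 133 in mock, 286 at 2 h and 116 at 18 h. For the AXL region at 20.2 kb it was 68.7 in mock, 136 at 2 h and 83.3 at 18 h, and for the AXL region at 4.45 kb 430 in mock, 560 at 2 h and 314 at 18 h. The MERTK region had 127 in mock, 188 at 2 h and 113 at 18 h. All of these were highest at 2 h, which their choice by a rise at 2 h or a fall afterwards favours. Summed over the 35 AXL regions the implied level was 2473 in mock, 3306 at 2 h and 2161 at 18 h, which gives ratios of 1.34 (2 h over mock), 0.874 (18 h over mock) and 0.654 (18 h over 2 h). The ratio of 2 h to mock was 0.949 for TYRO3, 1.06 for MERTK, 1.06 for GAS6 and 1.03 for PROS1.

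**Figure D4:**
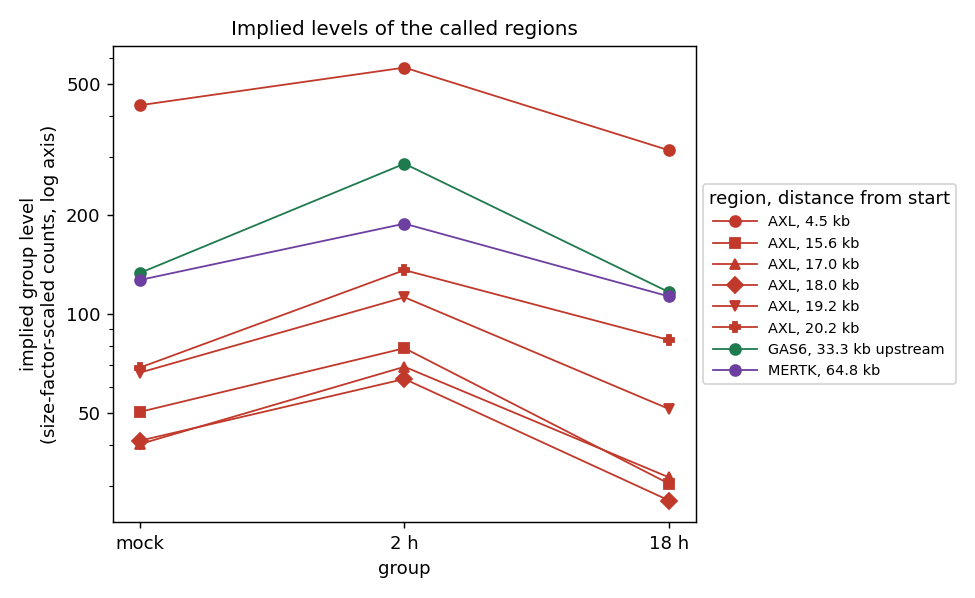
Implied level (y axis, size-factor-scaled counts on a log axis) of the 8 called regions in mock, at 2 h and at 18 h (x axis); colours mark the gene and the legend gives the distance from the RefSeq start. All 8 lines peak at 2 h, which the choice of regions by a rise at 2 h or a fall afterwards favours. The AXL region at 20.2 kb was 0.28 ± 0.26 above mock on the log2 scale at 18 h and was not tested there.

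None of the 5 start regions was called in any comparison, and that of MERTK was not tested at 18 h against mock. The TYRO3 start at 2 h and the AXL start between the times had an unadjusted p under 0.05 (DESeq2). For TYRO3 no region covered the RefSeq start. The region at its named start was used, which lay 1.31 kb before the RefSeq start and overlapped the pseudogene ELOCP2. For the other genes it was the region covering the RefSeq start. The AXL start region (chr19:41218847-41219348, mean signal 348) had 0.18 ± 0.14 at 2 h (adjusted p = 0.760) in the authors' deposited table, with a 95% interval of -0.09 to 0.45. At 18 h against mock it had -0.19 ± 0.14 (adjusted p = 0.840) and from 2 h to 18 h -0.37 ± 0.14 (adjusted p = 0.142) in the authors' deposited table, with an unadjusted interval of -0.64 to -0.10 for the difference between the times. The 2 h values of the other start regions lay below 0, with 95% intervals of -0.54 to -0.01 for TYRO3, -0.69 to 0.25 for MERTK, -0.56 to 0.13 for GAS6 and -0.42 to 0.13 for PROS1. The median of all tested regions was itself -0.06 at 2 h and -0.07 at 18 h in the authors' deposited table. Between the times the GAS6 start had 0.02 ± 0.18, with an interval of -0.32 to 0.37, and the PROS1 start had 0.02 ± 0.14 in the authors' deposited table. A missed threshold does not show that the starts were unaltered.

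**Figure D5:**
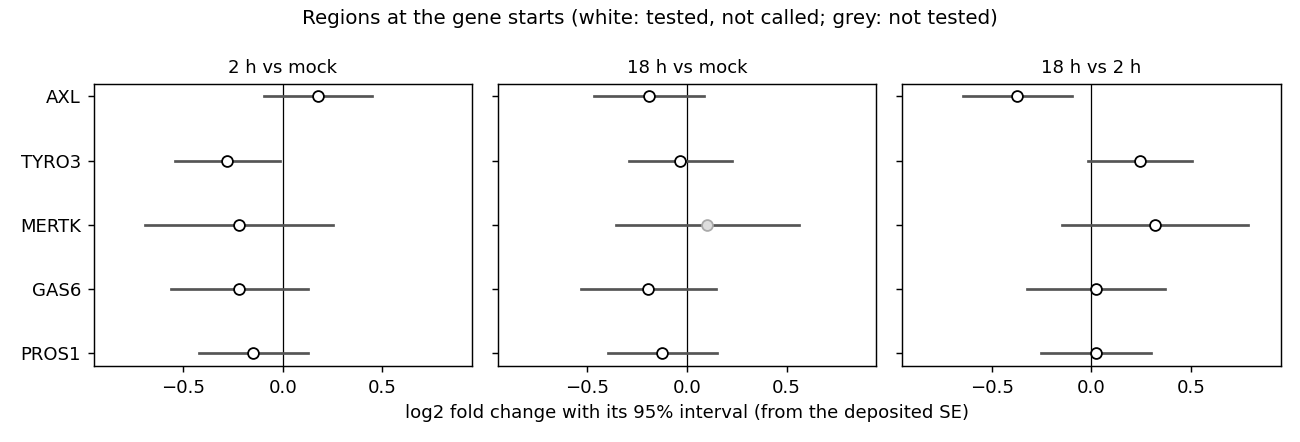
Log2 fold change (x axis) with its 95% interval from the deposited SE for the start region of each gene (rows) in the 3 comparisons; white points were tested and not called, and the grey point was under the signal limit. The AXL point is the one above 0 at 2 h (0.18) and the one below 0 from 2 h to 18 h (-0.37); the TYRO3 region lies 1.31 kb before the RefSeq start.

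The other genes of TAM signalling, phosphatidylserine exposure and engulfment were read from a list of 49. At 2 h 5 of their 376 tested regions rose (1.33%) and 5 fell (1.33%), against 0.856% and 0.421% of all tested regions, with a median of -0.07 against -0.06 over all. At 18 h 0 of 255 were called, with a median of -0.11 against -0.07 over all. Of these, 28 had an unadjusted p under 0.05 (DESeq2), where 7.89% of all tested regions did. Between the times 16 of 475 fell (3.37%) and 3 rose (0.632%), against 2.98% and 0.498% of all. The share that fell at 2 h stood above the background.

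By role, the 20 signalling genes had 3 regions that rose and 4 that fell of 164 tested at 2 h. Pathway regions, too, carry their gene names by distance alone. The region named for JAK1, a cytokine receptor kinase, lay 48.6 kb from its named start and had 0.49 ± 0.13 in the authors' deposited table. That of SOCS3, an inhibitor of cytokine signalling, lay 35.2 kb away and had -0.56 ± 0.16 in the authors' deposited table. The region of PLCG1, a phospholipase recruited by receptor kinases, lay 4.32 kb from its named start and had -0.42 ± 0.10 there. The 9 engulfment genes had 1 region that rose and 1 that fell of 97, named for the integrin genes ITGB5 and ITGB3. The ITGB5 region (113 kb from its named start) had 0.74 ± 0.18 and the ITGB3 region (41.6 kb) -0.53 ± 0.09 in the authors' deposited table. Between the times, 7 of 207 tested regions of the signalling genes fell and 1 rose. Of 120 tested regions of the engulfment genes 5 fell, 3 of them named for ITGB5, and 2 rose. The ITGB5 region above fell by 1.20 ± 0.19 and a region of its partner ITGAV by 1.19 ± 0.37, while regions of DOCK1 (0.73 ± 0.23), a Rac activator in engulfment, and ITGB3 (0.52 ± 0.09) rose in the authors' deposited table.

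Among other engulfment receptors 1 of 42 tested regions rose at 2 h, that of MEGF10, at 1.04 ± 0.17 (60.5 kb from its start; adjusted p = 2.60e-06, DESeq2) in the authors' deposited table. It fell from 2 h to 18 h by 1.19 ± 0.17 in the authors' deposited table. The remaining lists had 0 called regions at 2 h (DESeq2): 2 of 19 for the vitamin K-dependent processing genes GGCX, VKORC1 and VKORC1L1 had an unadjusted p under 0.05, 2 of 21 for the proposed ligands TUB, TULP1 and LGALS3, 1 of 6 for the sheddase genes ADAM10 and ADAM17, and 1 of 27 for phosphatidylserine exposure. The first 3 of these lists had 0 called regions between the times as well, with 1 of 22, 0 of 24 and 2 of 9 at an unadjusted p under 0.05 (DESeq2). Over all tested regions the share at this unadjusted threshold was 10.0% at 2 h and 11.6% between the times. Of the 34 tested regions of phosphatidylserine exposure genes 2 fell between the times, named for the scramblase gene ANO6 and the flippase gene ATP11A. The ANO6 region (52.8 kb from its named start) had -0.42 ± 0.13 and the ATP11A region (21.3 kb) -0.29 ± 0.09 in the authors' deposited table.

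The regions most like the GAS6 upstream region were sought among 719 other gene names with a region called at 2 h and no less signal than the median tested region (LOC, LINC and MIR names left out), by the Euclidean distance between pairs of log2 fold changes against mock (2 h and 18 h). The nearest were KALRN (0.0192), GJA5 (0.0228), CLPTM1L (0.0349), MEGF10 (0.0771) and THRB (0.0806). In this order, the signed distances of these regions to the named gene starts were -315131, -200, 16710, -60549 and -153004 bases. The regions carry these names by distance alone. This likeness rests on 2 fold changes that share the mock libraries.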

How the data were processed

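Results rest on 3 tables of pairwise comparisons on hg38 that the authors deposited, in which 0 columns belong to a single library. Bcl2fastq 2.17 and DESeq2 (no version named) were used, per the submitters' processing notes. Aligner, peak caller, read counter and any Tn5 shift of read ends are not given in the sources used here. Per the file headers, each row gives a mean signal (counts divided by size factors by the authors), a log2 fold change with its SE, a Wald statistic (a score, by the authors), and a deposited p-value with its adjusted p. No count model could be fitted anew. Cells had been stored frozen, then thawed and exposed to DNase I before lysis, per the labels' protocols.

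Rows that repeat a region under a numeric suffix (6526, 6522 and 6524 rows in the tables for 2 h against mock, 18 h against mock and 18 h against 2 h) were left out of counts over all regions. Benjamini-Hochberg adjustment of the p-values of regions at or above the limit on mean signal (86137, 55341 and 108134 regions) returned the deposited adjusted p to within 4.99e-14. Intervals of 95% are the log2 fold change ± the normal quantile times the SE. Distances from RefSeq starts (GRCh38.p14) run to the region's centre; exons, introns and the sequence of regions were not analysed here, and whether the files count from 0 or 1 was not stated. The regions were 501 bases from start to end.

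The members, the lists and the rule for named regions were chosen with earlier results of these data known. Named were each gene's start region, every called region, where a gene had no call its tested region of smallest p, up to 4 called pathway genes per direction and comparison, and the 5 nearest gene names by fold change; further regions along AXL and GAS6, the ANO6 and ATP11A regions and the medians by gene name were added after their values were seen. Values of 1 pathway gene that the rule names are not reported here. Alternatives were centring on the median tested region or in 20 bins of mean signal, adjusted p under 0.01 or 0.1, no signal limit, a 2-fold minimum, a 100 kb limit, members by gene span, and regions with 1 name. The adjustment and centring were tested on simulated data. Python 3.11.15, numpy 2.4.6, pandas 2.3.3, scipy 1.17.1 and matplotlib 3.10.9 were used.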

Additional observations from a re-analysis of the deposited data

Results flagged for a closer look

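The effect against mock differed between 2 h and 18 h, by the comparison of the times itself (adjusted p under 0.05 in DESeq2, from the authors' deposited table), at 7 regions of AXL, GAS6 and MERTK. The log2 fold change of 18 h against 2 h was -0.84 for the AXL region at 4.45 kb from the start, -1.37 at 15.6 kb, -1.12 at 17.0 kb, -1.23 at 18.0 kb and -1.13 at 19.2 kb. It was -1.30 for the GAS6 region 33.3 kb upstream and -0.73 for the MERTK region at 64.8 kb. All 7 had a log2 fold change above 0 at 2 h and below 0 at 18 h against mock. They were chosen by a difference between the times, which favours this order. Only 4 of them were tested at 2 h, of which the GAS6 region was called, and 3 at 18 h, of which 0 were called and 1 (AXL at 4.45 kb) had an unadjusted p under 0.05 (DESeq2); the AXL regions at 15.6, 17.0 and 18.0 kb were tested at neither time and that at 19.2 kb was tested at 2 h alone. Groups of 2 libraries allowed no search for libraries that stand apart.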

How the results depend on the processing

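No paired analysis was possible because the tables hold no values per library; for the same reason no library could be left out. Counts of called regions kept their direction under every alternative. The 2 regions higher at 2 h became 1 with an adjusted p under 0.01, 1 with a 2-fold minimum and 1 with members taken by gene span, since the GAS6 region lies outside the gene. The 7 regions lower from 2 h to 18 h became 4 with an adjusted p under 0.01. With a 2-fold minimum, the AXL region at 4.45 kb (1.78-fold) and the MERTK region (1.66-fold) were lost. With members taken by gene span the GAS6 region was lost here too. With an adjusted p under 0.1 the AXL regions at 10.4, 16.4 and 20.2 kb were gained. Of 274 alternative values of named regions, 262 kept their side of the threshold, 9 lost and 3 gained it, and 0 reversed. With centring on the median tested region, or in bins of mean signal, the AXL region at 4.45 kb was called at 2 h (adjusted p = 0.0362 and 0.0155), which makes 3 higher. The AXL count above 0 at 2 h stayed at 33 under both centrings (medians 0.67 and 0.59); at 18 h against mock it was 13 with centring on the median and 7 in bins, against 8 as deposited, with medians of -0.03, -0.21 and -0.10. Depth per library is unknown, and 66, 76 and 52 of the 97 regions were too weak to be tested at 2 h, at 18 h and between the times.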

Other observations

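Of gene names with at least 30 regions, those with a median at 2 h above that of AXL were SLC7A5 (0.98 over 36 regions), an amino acid transporter gene, GDA (0.80 over 35), MYOF (0.77 over 103), MAP3K14 (0.70 over 47), a kinase gene of non-canonical NF-kB signalling, and TPM1 (0.65 over 43), a tropomyosin gene. From 2 h to 18 h, the names below AXL were SLC7A5 (-1.01) and MYOF (-0.85). These names were picked by their values, and the medians carry no test.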
